A study of Homo sapiens with 12 samples.

Results

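The dual-specificity phosphatase genes whose products act on MAP kinases were followed through stimulation of a breast cancer cell line. The members were DUSP1, DUSP2, DUSP4, DUSP5, DUSP6, DUSP7, DUSP8, DUSP10, DUSP14 and DUSP16. They were listed by gene name, with earlier results of these data known. Each had 1 of the 24331 features of the expression table, so that all 10 were found. Of these, 8 had a mean of at least 1 FPKM (fragments per length of transcript, scaled to library size) over 11 of the libraries and entered the tests, while DUSP2 and DUSP8 did not.

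RNA was sequenced from the MDA-MB-231 line, human breast cancer cells of mesenchymal, triple-negative type. Wild-type (WT) cells were set against cells labelled KO (CRE deleted), called ΔCRE cells here, in which CRISPR/Cas9 had removed the NFAT and NF-κB binding sites in the core-regulatory element (CRE) of ETS1. Both were taken at 0, 6 and 24 h of treatment with PMA, a phorbol ester that activates protein kinase C, together with Ionomycin, a calcium ionophore, and each of the 6 conditions had 2 biological replicates, which gave 12 libraries. The study screened clones for the deletion, and how many of them the ΔCRE libraries represent is not given in the sources used here. An effect of the deletion and a difference between clones therefore cannot be told apart. No untreated library was taken at 6 or 24 h, so effects of PMA/Ionomycin and of time in culture cannot be told apart. In bulk RNA, fewer cells that express a gene and less RNA of it per cell cannot be told apart either.

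MAP kinases (ERK, JNK and p38) are switched on by phosphorylation of a threonine and a tyrosine in their activation loop, and the dual-specificity phosphatases remove both phosphates. Several of these phosphatase genes are themselves transcribed in response to ERK or to stress, so that the pathway makes its own brakes, and their RNA is often used as a readout of signalling. DUSP1, DUSP2, DUSP4 and DUSP5 are nuclear and inducible, DUSP6 and DUSP7 are cytoplasmic and prefer ERK, DUSP8, DUSP10 and DUSP16 prefer JNK and p38, and DUSP14 is a small atypical enzyme without the kinase-binding domain of the others.

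The promoters of DUSP1 and DUSP6 are shown because DUSP1 had the deepest fall over time of the members and DUSP6 the smallest adjusted p between ΔCRE and WT cells at 24 h. Each line holds the 250 bases before the transcription start (RefSeq, GRCh38.p14), 5′ to 3′ on the minus strand, with motif matches in capitals. Matches of TGACG outside a full cAMP response element are not marked. DUSP1 lies at chr5:172771196-172771445 with a GC content of 74.4%, and its capitals mark a full cAMP response element, TGACGTCA, from 125 to 118 bases before the start. DUSP6 lies at chr12:89352502-89352751 with a GC content of 57.2%, and its capitals mark an NFAT core, GGAAA, on each strand.
DUSP1: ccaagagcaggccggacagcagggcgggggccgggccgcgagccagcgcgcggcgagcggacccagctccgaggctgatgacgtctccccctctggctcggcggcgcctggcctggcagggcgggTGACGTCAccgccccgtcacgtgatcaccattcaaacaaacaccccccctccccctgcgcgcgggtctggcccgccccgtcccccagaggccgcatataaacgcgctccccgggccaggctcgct
DUSP6: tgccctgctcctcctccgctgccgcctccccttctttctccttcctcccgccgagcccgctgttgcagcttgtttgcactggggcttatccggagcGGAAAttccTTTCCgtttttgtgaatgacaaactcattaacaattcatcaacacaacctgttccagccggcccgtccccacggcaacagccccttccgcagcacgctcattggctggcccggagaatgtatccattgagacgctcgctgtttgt
The table of promoters held a window of 250 bases before to 50 bases after the start for 8 of the members, 9 windows in all, because DUSP10 had 2. DUSP4 and DUSP5 had none. Matches were searched on both strands, and of the 35116 windows in the table, 1.85% held the full cAMP response element and 61.2% held an NFAT core. The full element was present in DUSP1 and, in 2 copies, in DUSP8. Its shorter core, TGACG, which every full element contains, was in 24.6% of all windows and among members also in DUSP10, and NFAT cores were in DUSP6, DUSP10 and DUSP16. A kappaB site, held by 11.3% of all windows, was found in DUSP7. No member window held the letters of an AP-1 site (TGANTCA, in 7.71% of all windows), an ETS site (CCGGAA, in 17.2%) or a CArG box (in 1.29%). A match describes letters in a window and was not tested as a binding site.

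ETS1, the gene next to the deleted element, was checked first. Its FPKM in WT cells was 24.0 and 23.7 at the start, 139 and 145 at 6 h, and 36.2 and 39.7 at 24 h. In ΔCRE cells it was 16.5 in replicate 2 at 0 h, 62.8 and 62.2 at 6 h, and 29.3 and 30.7 at 24 h. Every ΔCRE library lay below the WT libraries of its time point, as its label implies. VIM and CD44, markers of this line, were high in all libraries (at least 1200 and 75.9 FPKM). Of the markers taken as low in this line, ESR1 and PGR were at or near 0 in all 12. ERBB2 was at 9.68 to 15.4, CDH1 at 0 to 0.0318 and EPCAM at 2.02 to 3.38 FPKM in 11 libraries. In ΔCRE 0 h replicate 1 these 3 were at 52.0, 52.3 and 1139 FPKM. The library labelled ΔCRE 0 h replicate 1 stood apart: its FPKM values summed to 1423335 against 566255 to 651080 in the other 11, and Pearson's r with its replicate, across genes, was 0.774 against 0.980 to 0.986 within the other conditions. In it, 12 of 12 gut epithelium markers were above every other library, with a summed level of 11866 FPKM against 2.23 to 3.57, and ETS1 was at 5.08. The part of these markers in its values was not tested. Its values are given apart, and the fits below use the other 11 libraries.

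Differences were tested with limma on log2(FPKM + 1), with Benjamini-Hochberg adjustment over 11256 features, and a gene is called higher or lower at an adjusted p under 0.05. Fold changes on this scale understate the change of genes with low FPKM. P-values measure the spread between these libraries only, and with ΔCRE 0 h replicate 1 left out, ΔCRE 0 h rests on 1 library that is assumed to vary like the other groups. The choice of 11 libraries matters: over 10 comparisons of 8 members, 36 of 80 values were called, against 5 of 80 when all 12 libraries entered the fit. These 5 were DUSP5 at 6 and 24 h against 0 h in WT cells and at 6 h against 0 h in ΔCRE cells, DUSP1 at 24 h against 0 h in WT cells, and DUSP6 at 24 h against 6 h in ΔCRE cells.

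DUSP5, which removes phosphates from ERK in the nucleus and holds it there, had the widest range of the members. Its feature spans chr10:112257625-112271302 (hg19). Its FPKM in WT cells was 17.2 and 16.9 at 0 h, 169 and 172 at 6 h, and 141 and 143 at 24 h. The ΔCRE libraries had 16.7 at 0 h in replicate 2 (11.5 in replicate 1), 146 and 140 at 6 h, and 118 and 123 at 24 h. All libraries at 6 and 24 h lay far above all those at 0 h, and at both later times the ΔCRE libraries lay below the WT libraries. The mean in WT cells was 10-fold higher at 6 h than at 0 h, a log2 change of 3.25 ± 0.05 (SE, adjusted p = 9.52e-10), and 99.6% of all features tested had a lower change. In ΔCRE cells the change from 0 to 6 h was 3.02 ± 0.06 (adjusted p = 7.92e-09), and it was also called with all 12 libraries (3.28 ± 0.15). From 6 to 24 h DUSP5 fell by 0.26 in WT and by 0.24 in ΔCRE cells on the log2 scale, but neither fall was called after rescaling to TPM (-0.15 in both) or after quantile normalization (-0.10 and -0.07).

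The 5 features whose levels followed DUSP5 most closely over the 11 libraries were OPTN, ZSWIM4, ZC3H12A, JUNB and BCL2A1, with Pearson's r of log2(FPKM + 1) between 0.991 and 0.996. The 11 points fall mainly into 0 h and stimulated libraries, so r reflects that split. JUNB, an AP-1 subunit, went from a mean of 13.4 FPKM in unstimulated WT cells to 86.7 at 6 h and 72.7 at 24 h. ZC3H12A, an RNase that degrades inflammatory mRNAs, had 2.17, 10.7 and 8.56 FPKM at the same times.

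DUSP1, an immediate-early nuclear phosphatase of p38, JNK and ERK, went the other way. Its feature spans chr5:172195093-172198203 (hg19). Unstimulated WT libraries had an FPKM of 59.8 and 57.8, which became 35.2 and 37.2 at 6 h and 15.8 and 15.5 at 24 h. ΔCRE cells had 68.3 at 0 h in replicate 2 (28.3 in replicate 1), 40.1 and 38.3 at 6 h, and 18.4 and 16.1 at 24 h. The 3 time points did not overlap in the 11 libraries of either genotype, and the level fell at each step. No library was taken between 0 and 6 h, so a change of DUSP1 within that time would not be seen. In WT cells the fall was 0.69 ± 0.07 from 0 to 6 h (SE, adjusted p = 0.000111) and 1.16 ± 0.07 from 6 to 24 h (adjusted p = 1.06e-05) on the log2 scale, and the mean at 24 h was 26.6% of that at 0 h. In ΔCRE cells DUSP1 fell by 0.78 ± 0.09 from 0 to 6 h and by 1.14 ± 0.07 from 6 to 24 h. With all 12 libraries the ΔCRE change from 0 to 6 h was -0.17 and was not called (adjusted p = 0.717).

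DUSP4, a nuclear phosphatase that is a common transcriptional target of ERK, had its highest FPKM at 24 h. In WT cells it was 52.7 and 56.7 at 0 h, 60.9 and 57.8 at 6 h, and 77.2 and 78.2 at 24 h. The level in ΔCRE cells was 55.4 at 0 h in replicate 2 (23.2 in replicate 1), 48.3 and 46.2 at 6 h, and 68.6 and 68.0 at 24 h. WT and ΔCRE cells did not overlap at 6 or 24 h, with ΔCRE cells lower at both. DUSP4 rose from 6 to 24 h by 0.38 ± 0.06 in WT cells (adjusted p = 0.000771) and by 0.52 ± 0.06 in ΔCRE cells (adjusted p = 0.000139). From 0 to 6 h it fell by 0.23 in ΔCRE cells (adjusted p = 0.0372), a call that was lost in 6 of the 10 fits that left out a library (without any of the ΔCRE 6 h, ΔCRE 24 h or WT 24 h libraries, adjusted p = 0.0528 to 0.115) and that turned to 0.38 with all 12 libraries. DUSP2, best known from lymphocytes, was listed at 0 in 11 libraries and at 1.37 FPKM in ΔCRE 0 h replicate 1.

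**Figure D1:**
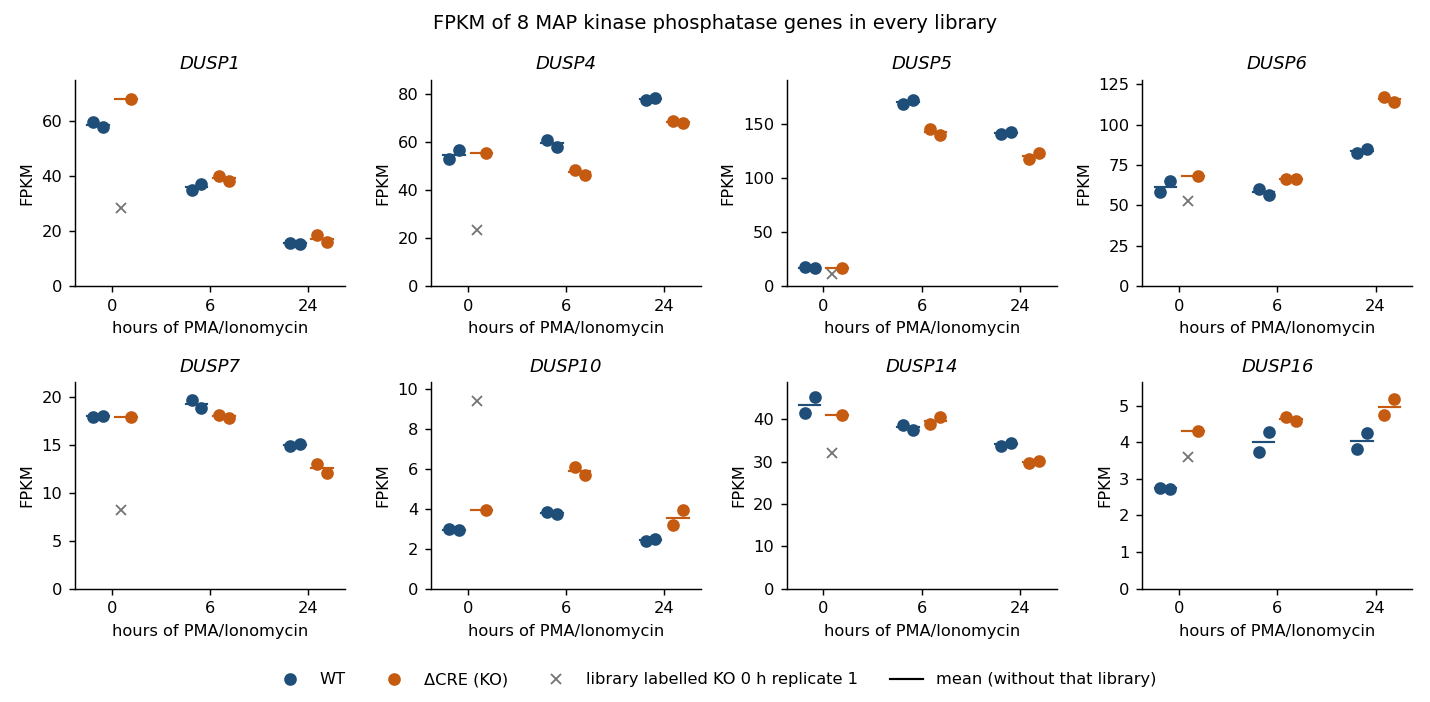
FPKM (vertical axes, starting at 0) of the 8 members that were tested, against hours of PMA/Ionomycin, with 1 point per library, WT in blue and ΔCRE in orange, short lines for means, and a grey cross for ΔCRE 0 h replicate 1. DUSP5 rises from 17.2 and 16.9 to 169 and 172 in WT cells within 6 h, DUSP1 falls at each step, and DUSP6 is highest in ΔCRE cells at 24 h (117 and 114).

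DUSP6, the cytoplasmic ERK phosphatase that acts as a feedback inhibitor, did not follow DUSP5. Its feature lies at chr12:89741837-89746296 (hg19). Its FPKM in WT cells was 58.1 and 65.1 at 0 h, 60.1 and 56.4 at 6 h, and 82.6 and 84.9 at 24 h. The ΔCRE values were 68.0 at 0 h in replicate 2 (52.7 in replicate 1), 66.5 in both replicates at 6 h, and 117 and 114 at 24 h. The 0 and 6 h libraries of WT cells overlapped, and all 24 h libraries lay above all earlier ones. The change from 0 to 6 h in WT cells was -0.08 ± 0.06 and was not called (adjusted p = 0.352). From 6 to 24 h DUSP6 rose by 0.52 ± 0.06 in WT cells (adjusted p = 0.000344) and by 0.79 ± 0.06 in ΔCRE cells (adjusted p = 3.6e-05). The ratio of DUSP5 to DUSP6 FPKM, the nuclear to the cytoplasmic ERK phosphatase, was 0.296 and 0.259 in unstimulated WT libraries, then 2.81 and 3.05 at 6 h, and was 1.70 and 1.68 at 24 h. In ΔCRE cells it was 0.245 at 0 h in replicate 2, 2.19 and 2.10 at 6 h, and 1.0 and 1.1 at 24 h, lower than in WT cells at each time.

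DUSP7, a close relative of DUSP6, varied less. WT libraries had an FPKM of 17.9 and 18.0 at 0 h, 19.7 and 18.8 at 6 h, and 14.9 and 15.0 at 24 h. In the ΔCRE libraries it was 17.9 at 0 h in replicate 2 (8.23 in replicate 1), 18.1 and 17.8 at 6 h, and 13.0 and 12.1 at 24 h. The 24 h libraries of both genotypes lay below all others of the 11. DUSP7 fell from 6 to 24 h by 0.35 ± 0.06 in WT cells (adjusted p = 0.00144) and by 0.48 ± 0.06 in ΔCRE cells (adjusted p = 0.000224).

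DUSP10, a phosphatase of p38 and JNK, was expressed at a much lower level, from a feature at chr1:221874764-221915516 (hg19). WT libraries had an FPKM of 2.99 and 2.92 at 0 h, 3.85 and 3.74 at 6 h, and 2.37 and 2.46 at 24 h. ΔCRE cells had 3.92 at 0 h in replicate 2 (9.39 in replicate 1), 6.10 and 5.67 at 6 h, and 3.17 and 3.95 at 24 h. ΔCRE libraries lay above WT libraries at each time, and 6 h was the highest time in both. DUSP10 fell from 6 to 24 h by 0.49 ± 0.09 in WT cells (adjusted p = 0.00273) and by 0.60 ± 0.09 in ΔCRE cells (adjusted p = 0.000871). The rise from 0 to 6 h in WT cells, 0.28 ± 0.09 (adjusted p = 0.0352), was lost in 6 of 11 fits that left out a library, namely any WT library (adjusted p = 0.0517 to 0.133), and after rescaling to TPM (0.20). The rise in ΔCRE cells, 0.48 ± 0.11 (adjusted p = 0.0122), was not called after rescaling to TPM (0.39, adjusted p = 0.0588) or with only the groups compared (adjusted p = 0.0806), and was -0.06 with all 12 libraries.

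DUSP16, which prefers JNK, had FPKM in WT cells of 2.76 and 2.72 before stimulation, 3.74 and 4.28 at 6 h, and 3.81 and 4.26 at 24 h. The level in ΔCRE cells was 4.32 at 0 h in replicate 2 (3.59 in replicate 1), 4.70 and 4.57 at 6 h, and 4.75 and 5.19 at 24 h. WT libraries at 6 and 24 h overlapped with each other and lay above those at 0 h, and the ΔCRE libraries lay above the WT libraries of the same time. This genotype difference was not called at 6 h (adjusted p = 0.257) or 24 h (0.134). At both times the genotypes did not overlap for any of the 8 tested members, and the share over all features was not computed. DUSP16 rose in WT cells by 0.42 ± 0.08 from 0 to 6 h (adjusted p = 0.00402). DUSP8, a JNK phosphatase best known from brain and heart, was between 0.0802 and 0.405 FPKM in 11 libraries and 1.76 in ΔCRE 0 h replicate 1. The locus given for its feature spans 294.8 kb and is shared by 12 other features, so its value is uncertain.

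DUSP14, the atypical member, had FPKM in WT cells of 41.4 and 45.2 at 0 h, 38.7 and 37.4 at 6 h, and 33.8 and 34.5 at 24 h. The ΔCRE values were 41.0 at 0 h in replicate 2 (32.0 in replicate 1), 38.9 and 40.5 at 6 h, and 29.6 and 30.2 at 24 h. The 24 h libraries of both genotypes lay below the others of the 11, and in ΔCRE cells the fall from 6 to 24 h was 0.39 ± 0.06 (adjusted p = 0.000695). In WT cells the change over the same interval was -0.15 ± 0.06 and was not called (adjusted p = 0.0542). The fall from 0 to 6 h in WT cells was 0.18 ± 0.06 (adjusted p = 0.0322) and was lost without WT 0 h replicate 2 (-0.12, adjusted p = 0.161), WT 6 h replicate 1 (-0.20, 0.0742) or WT 6 h replicate 2 (-0.16, 0.142).

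Counted over the members, 5 of the 8 tested changed from 0 to 6 h in WT cells (3 higher, 2 lower), beside 44.4% of all features. From 0 to 24 h in WT cells 7 changed (4 higher, 3 lower), beside 54.6% of all features, in a comparison that shares its 0 h libraries with the one before. From 6 to 24 h 6 changed in WT cells (2 higher, 4 lower) and 7 in ΔCRE cells (2 higher, 5 lower), beside 46.8% and 49.6% of all features. From 0 to 6 h in ΔCRE cells 4 changed (2 higher, 2 lower), beside 29.8%. With all 12 libraries these counts were 1, 2, 0, 1 and 1, beside 8.02%, 11.4%, 5.65%, 8.09% and 9.64% of all features. In the fit of 11 libraries the share of members called was above the share of all features in each of these comparisons. This difference over 8 genes was not tested. The median log2 change of the members was 0.11 in WT cells and -0.01 in ΔCRE cells from 0 to 6 h, and -0.21 and -0.32 from 6 to 24 h, against -0.0014 and 0.0022, and -0.036 and -0.032, over all features.

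The direction of small changes depended on scaling. Rescaling FPKM to TPM moved the median of all features from 0 to 6 h in WT cells from -0.0014 to -0.12, and the share of calls that were higher from 52.5% to 35%. In ΔCRE cells from 0 to 6 h that share went from 56.4% to 31.8%. From 6 to 24 h it went the other way, from 43.7% to 64.3% in WT and from 44.6% to 60.7% in ΔCRE cells. Among the members, values for DUSP4 and DUSP7 from 0 to 6 h in WT cells changed sign under TPM (to -0.004 and -0.02), and neither had been called.

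**Figure D2:**
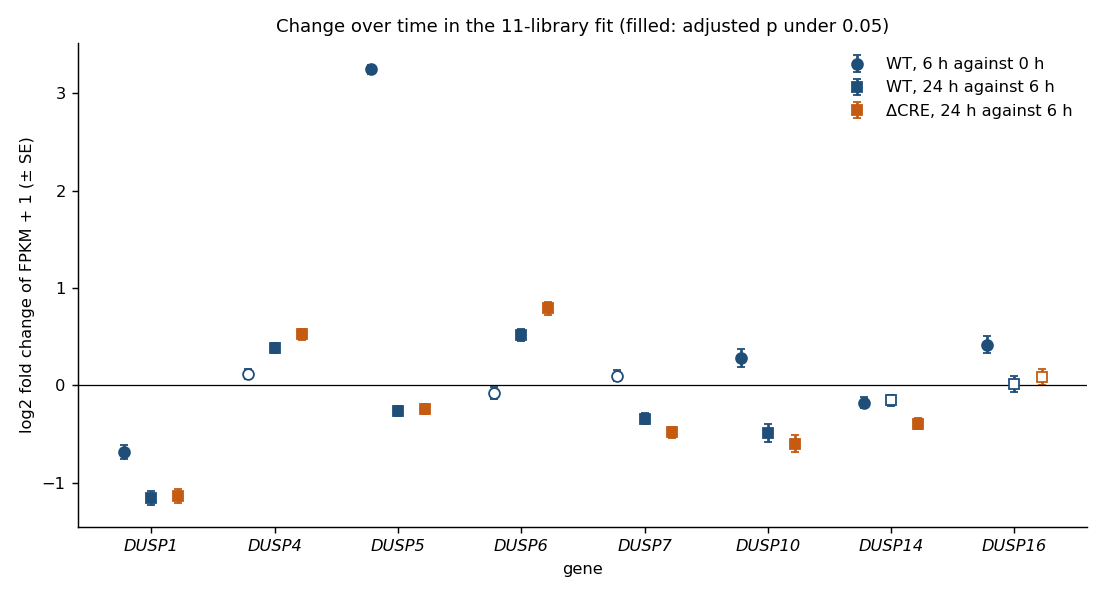
Log2 fold change of FPKM + 1 (vertical axis, error bars are SE) of the 8 tested members in the fit of 11 libraries, for 6 h against 0 h in WT cells (blue circles) and 24 h against 6 h in WT (blue squares) and ΔCRE cells (orange squares); filled symbols have an adjusted p under 0.05. DUSP5 stands at 3.25 for WT 6 h against 0 h, while from 6 to 24 h DUSP1 lies at -1.16 and -1.14 and DUSP6 at 0.52 and 0.79.

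The next comparison asked which members differed between ΔCRE and WT cells. At 6 h DUSP10 was higher and DUSP4 and DUSP5 were lower in ΔCRE cells, so 3 of 8 tested members were called, beside 9.83% of all features. At 24 h DUSP6 and DUSP10 were higher and DUSP5 and DUSP7 were lower, 4 of 8, beside 6.33% of all features. At 0 h, against 1 ΔCRE library, 0 of the 8 were called by limma and 3 had an unadjusted p under 0.05, beside 1.69% of all features called. With all 12 libraries limma called 0 at each of the 3 times, and 2, 0 and 1 members had an unadjusted p under 0.05 at 0, 6 and 24 h. The share of all calls that were higher at 24 h was 37.2%, and 24.7% after rescaling to TPM.

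DUSP6 had the smallest adjusted p of the members at 24 h, with a mean FPKM of 115.8 ± 2.2 in ΔCRE cells and 83.8 ± 1.6 in WT cells (SD, n = 2 each). This was 1.38-fold, a log2 difference of 0.46 ± 0.06 (SE, adjusted p = 0.0055), and 98.7% of all features had a lower difference. The call held in 10 of 11 fits that left out a library and was lost without WT 24 h replicate 1 (0.44, adjusted p = 0.0584). With all 12 libraries the difference was 0.46 ± 0.13 and was not called (adjusted p = 0.623). At 6 h DUSP6 differed by 0.19 ± 0.06 and was not called (adjusted p = 0.109). The change of this difference from 6 to 24 h was 0.27 ± 0.09, which had a p of 0.0153 from limma and was not called (adjusted p = 0.571).

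DUSP10 was 1.55-fold higher in ΔCRE cells at 6 h (log2 difference 0.52 ± 0.09, adjusted p = 0.0101) and 1.47-fold higher at 24 h (0.41 ± 0.09, adjusted p = 0.0358). The call at 6 h was lost without WT 6 h replicate 1 (0.54, adjusted p = 0.0678), WT 6 h replicate 2 (0.51, 0.0696) or ΔCRE 6 h replicate 1 (0.48, 0.0575). The call at 24 h held in 2 of 11 such fits, those without ΔCRE 0 h replicate 2 or ΔCRE 24 h replicate 1 (0.53). It was lost in the other 9, among them those without ΔCRE 24 h replicate 2 (0.29, adjusted p = 0.193) and WT 24 h replicate 1 (0.39, 0.198).

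DUSP5 was lower in ΔCRE cells by 0.25 ± 0.05 at 6 h (adjusted p = 0.0137) and by 0.24 ± 0.05 at 24 h (adjusted p = 0.0262), which left 83.7% and 84.8% of the WT mean. The call at 6 h was lost without WT 6 h replicate 1 (-0.27, adjusted p = 0.0742), WT 6 h replicate 2 (-0.24, 0.0866) or ΔCRE 6 h replicate 2 (-0.23, 0.0827). The call at 24 h was lost without either WT 24 h library, either ΔCRE 24 h library or WT 6 h replicate 1 (-0.27 to -0.21, adjusted p = 0.0501 to 0.137). At 0 h DUSP5 differed by -0.03 ± 0.06.

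DUSP4 was lower in ΔCRE cells by 0.32 ± 0.06 at 6 h (adjusted p = 0.0094), at 79.6% of the WT mean, and the difference at 24 h, -0.18 ± 0.06, was not called (adjusted p = 0.0976). The call was lost without WT 6 h replicate 1 (-0.29, adjusted p = 0.0819) or ΔCRE 6 h replicate 2 (-0.29, 0.0692). DUSP7 at 24 h was lower by 0.24 ± 0.06 (adjusted p = 0.0462), and this call held in 1 of 11 fits that left out a library, the one without ΔCRE 0 h replicate 2 (adjusted p over the 11 = 0.0465 to 0.254). The changes of these differences from 6 to 24 h, 0.14 for DUSP4 and -0.14 for DUSP7, were not called.

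At 0 h the unadjusted p from limma was 0.000959 for DUSP16 (0.51 ± 0.10, adjusted p = 0.0529), 0.0204 for DUSP10 (0.32) and 0.0373 for DUSP1 (0.21). DUSP16 at 0 h passed the threshold with a pseudocount of 0.1, quantile normalization, the replicate block or without a trend (adjusted p = 0.0343 to 0.0452), and not with all 12 libraries (0.40, 0.276). No member was called for a change of the genotype difference from 6 to 24 h, beside 0.16% of all features, or from 0 to 6 h, beside 0.267%. At an unadjusted p under 0.05, limma gave DUSP6 (0.27) and DUSP14 (-0.24) from 6 to 24 h, and DUSP4 (-0.34), DUSP5 (-0.22) and DUSP16 (-0.33) from 0 to 6 h.

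At 6 h the median difference between the genotypes over features near a member had the sign of the member's own for each tested member except DUSP14 (-0.01 against 0.06), and it lay farthest from 0 near DUSP10, DUSP5, DUSP6 and DUSP4. At 24 h the signs differed for DUSP1 (-0.008 against 0.13), DUSP14 (0.004 against -0.18) and DUSP16 (-0.009 against 0.24). At 0 h, with 1 ΔCRE library, they differed for DUSP4, DUSP6, DUSP7, DUSP14 and DUSP16. Within 5 Mb of DUSP10 the median log2 difference of 39 tested features at 6 h was 0.26, and 11 were called higher and 0 lower. Within 5 Mb of DUSP5 the median of 21 features was -0.18 at 6 h and -0.18 at 24 h, with 0 higher and 6 lower at each time, and it was -0.29 at 0 h, where DUSP5 itself stood at -0.03. Around DUSP4 the median of 32 features was -0.11 at 6 h, with 1 higher and 8 lower, and -0.12 at 0 h, where DUSP4 itself stood at 0.02. Around DUSP6 the 13 features had a median of 0.17 at 6 h and 0.07 at 24 h, and limma called 0 at either time (2 and 1 had an unadjusted p under 0.05). Around DUSP7 the median of 112 features was -0.02 at 24 h, with 3 higher and 3 lower. The part of these regional differences in the result for each member was not tested.

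**Figure D3:**
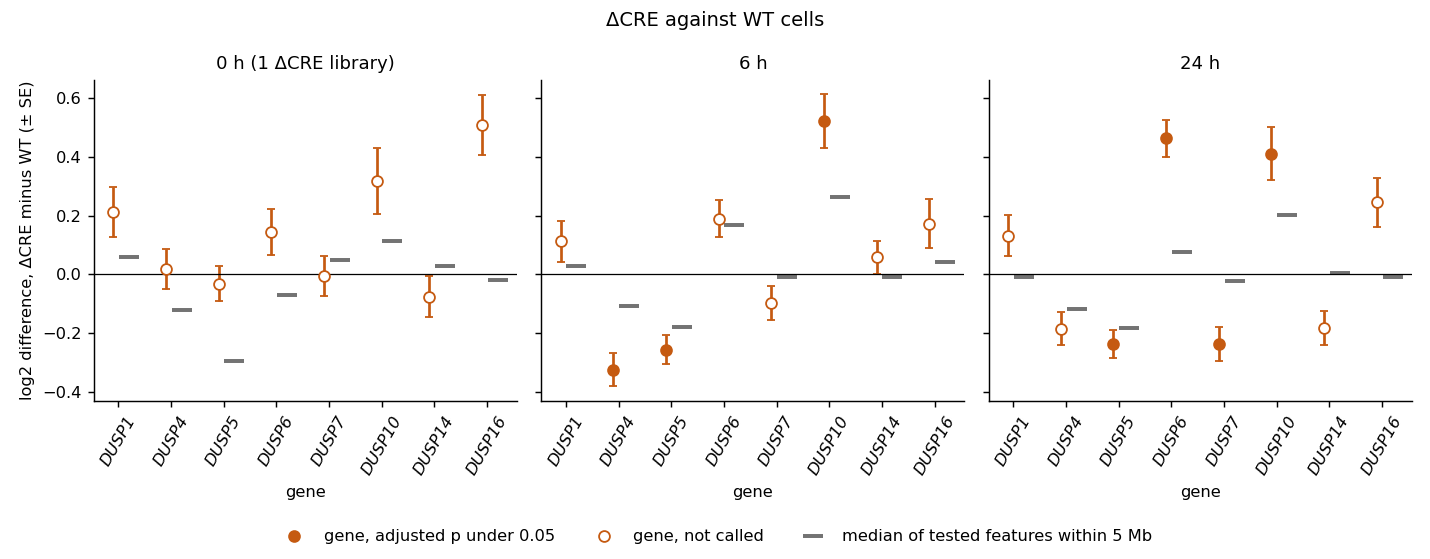
Log2 difference of ΔCRE minus WT cells (vertical axis, circles with SE; filled where the adjusted p is under 0.05) for the 8 tested members at 0, 6 and 24 h, with a grey bar for the median difference of tested features within 5 Mb of each gene. At 6 h DUSP10 (0.52) lies above its neighbours' median (0.26), and at 24 h DUSP6 (0.46) lies above its own (0.07), while DUSP5 (-0.24) lies near its own (-0.18).

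Within the family, the most abundant phosphatase RNA at 0 h was not the one at 6 and 24 h, which can be read from FPKM because it is set per length. At 0 h DUSP5 made up 6.80% and 6.36% of the summed FPKM of the 10 members in WT cells and 6.05% in ΔCRE replicate 2, where it ranked sixth. At 6 h it made up 43.2% and 44.3% in WT and 39.5% and 38.9% in ΔCRE cells, and it ranked first. At 24 h DUSP5 and DUSP6 held 37.9% and 22.2% in WT replicate 1, and 31.6% and 31.5% in ΔCRE replicate 1, with 33.0% and 30.6% in ΔCRE replicate 2. The shares of DUSP5 and DUSP6 were thus nearly equal in ΔCRE cells at 24 h and lay apart in WT cells.

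The rest of the pathway was read from lists by the same test. Of 15 genes known as outputs of ERK signalling, all tested, 8 were higher and 1 lower at 6 h than at 0 h in WT cells, beside 44.4% of all features called, with log2 changes of 2.16 for FOSL1, an AP-1 subunit, 2.03 for IER3, a survival gene, 1.62 for the transcription factor EGR1 and 0.96 for the receptor EPHA2. IER3 had 6 features, and the 1 with the highest mean FPKM over the 11 libraries was used. At 24 h 5 of the 15 were called for the genotype, all 5 higher in ΔCRE cells, beside 6.33% of all features, and the median over the list was 0.19. A further 5 had an unadjusted p under 0.05 from limma and lay lower in ΔCRE cells, FOSL1 (-0.26, adjusted p = 0.0557), EPHA2 (-0.22), ETV5 (-0.14), MYC (-0.16) and CCND1 (-0.16), and were named after their values were seen. EPHA4, named in the same way, also had an unadjusted p under 0.05 from limma and lay higher in ΔCRE cells (0.39, adjusted p = 0.0851). EGR1 was higher in ΔCRE cells at 6 h (0.93, adjusted p = 0.000907) and at 24 h (0.63). Of 13 RAS, RAF and MAP kinase kinase genes upstream of the MAP kinases, all tested, 4 were higher and 3 lower at 6 h in WT cells. This stands beside 44.4% of all features called. The 4 largest called changes were 2 rises and 2 falls, all in kinases directly upstream of the MAP kinases. MAP2K3, a kinase of p38, rose by 2.18 and MAP2K1, a kinase of ERK, by 0.62, while MAP2K6, also a p38 kinase, fell by 1.59 and MAP2K5 by 0.48. MAP2K3 was lower in ΔCRE cells by 0.32 at 6 h and by 0.52 at 24 h. It was the 1 gene of the 13 called at each time, beside 9.83% and 6.33% of all features. Of 9 MAP kinases tested out of 10, 2 were higher (MAPK11 by 0.55 and MAPK7 by 0.51) and 2 lower (MAPK3 by 0.23 and MAPK9 by 0.19) at 6 h in WT cells, the same share as over all features. Between the genotypes 1 of the 9, MAPK9, was higher and 0 lower in ΔCRE cells at 6 h (0.33), beside 9.83% of all features called. At 24 h 1 was higher, MAPK9 (0.30), and 1 lower, MAPK7 (-0.51, adjusted p = 0.00367), beside 6.33%.

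Of the 15 further dual-specificity phosphatase genes 9 were tested, and 2 were higher and 0 lower at 6 h in WT cells (beside 44.4% of all features called), DUSP18 by 0.75 and DUSP3, which acts on ERK and JNK, by 0.18. Against WT cells, 1 of the 9, DUSP3, was higher in ΔCRE cells at 6 h (0.23), beside 9.83% of all features called. At 24 h limma called 0 of the 9, beside 6.33% of all features, and 2 had an unadjusted p under 0.05. Of 8 other phosphatases of MAP kinases 6 were tested. In WT cells 2 were higher and 0 lower from 0 to 6 h, beside 44.4% of all features called. From 6 to 24 h 1 was higher and 4 lower, beside 46.8%. PTPRR, a tyrosine phosphatase of ERK, rose by 0.58 and then by 1.0, while PPP2CB rose by 0.36 and then fell by 0.37. The FPKM of PTPRR in WT cells was 0.0465 and 0.146 at 0 h, 0.694 and 0.572 at 6 h, and 2.25 and 2.29 at 24 h. Among the 11 libraries only those at 24 h had PTPRR above 1 FPKM, so it entered the tests through them. Between the genotypes limma called 0 of these 6 at 6 and at 24 h, beside 9.83% and 6.33% of all features. At these times 1 and 0 of the 6 had an unadjusted p under 0.05 from limma.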

How the data were processed

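RNA was measured by stranded mRNA sequencing of 12 libraries. The authors aligned it to hg19 (TopHat 2.0.12), and the FPKM values they deposited for 24331 features came from Cufflinks 2.2.1. The annotation, and whether values were scaled between libraries, are not given in the sources used here. FPKM values hold no counts, which leaves library depth unknown. Groups and replicate numbers come from the sample labels. Names of 2 columns carry a digit where the others have the letter H, and were matched to the only label left.

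The members, the lists of genes and the choice of 11 libraries were made with earlier results of these data known. With a pseudocount of 1, features that averaged 1 FPKM or more in the 11 libraries were fitted with limma 3.58.1 in R 4.3.3 as 1 model of 6 groups (eBayes with trend), after the script was tested on simulated data. Named genes are all members, the 5 features closest to the widest-ranging member, and at most 4 genes per list with the largest called change at 6 h against 0 h in WT cells or between genotypes at 6 h. Markers of the line and the ERK outputs named after their values were seen come in addition. Same-numbered ΔCRE and WT replicates had deviations that correlated at 0.1 and 0.107 at 6 and 24 h. These are 2 pairs and the labels do not say what a number marks, so they were not treated as paired. Promoter sequences are from RefSeq (GRCh38.p14). Proteins and Cuffdiff results were not used here, and 1 item of a list is not reported here.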

Additional observations from a re-analysis of the deposited data

Results flagged for a closer look

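DUSP2, DUSP8 and DUSP10 were at their highest in ΔCRE 0 h replicate 1, as labelled, a library left out of the 11-library fit. DUSP2 was at 1.37 FPKM there and listed at 0 in the other 11 libraries. DUSP8 was at 1.76 FPKM there and at most 0.405 elsewhere. DUSP10 was at 9.39 FPKM there and at most 6.10 elsewhere. Gut epithelium markers summed to 11866 FPKM in that library against at most 3.57 in the others, and their part in these values was not tested.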

How the results depend on the processing

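Of 1556 values of single members under alternatives, 1412 kept their direction and their side of the threshold, 96 lost a call, 13 gained one and 35 changed sign. With all 12 libraries the number of members called was 1 of 8 (5 with 11 libraries) for WT 6 h against 0 h, 2 (7) for WT 24 h against 0 h, 0 (6) for WT 24 h against 6 h, 1 (7) for ΔCRE 24 h against 6 h, 0 (3) and 0 (4) for ΔCRE against WT at 6 and 24 h, and 1 (4) for ΔCRE 6 h against 0 h, while limma's unadjusted p was under 0.05 for 2, 5, 2, 3, 0, 1 and 1 members in the same order. In that fit all features called fell from 4993 to 903 for WT 6 h against 0 h and from 712 to 19 for ΔCRE against WT at 24 h. With a mean FPKM of at least 5, DUSP10 and DUSP16 (means of 3.74 and 4.10) were not tested. Of the members left, 3 were called for WT 6 h against 0 h, beside 45.9% of all features. All 60 values of these members kept their direction and their side of the threshold. With only the groups compared, 1 member was called for ΔCRE against WT at 6 h, 1 at 24 h, and 2 for ΔCRE 6 h against 0 h. A pseudocount of 0.1, quantile normalization, the replicate block and eBayes without trend each called 1 member, DUSP16, between the genotypes at 0 h. Leaving out each library in turn gave 3 to 5 members for WT 6 h against 0 h, 0 to 3 for ΔCRE against WT at 6 h and 0 to 4 at 24 h.

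The replicate block called 5 members instead of 4 between the genotypes at 24 h, with DUSP14 added (-0.18, adjusted p = 0.0466), and 7 instead of 6 for WT 24 h against 6 h. Under the block DUSP7 was -0.013 for ΔCRE 6 h against 0 h and 0.011 between the genotypes at 0 h. The numbers share no stated batch, so the block was not used for the main values.

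Signs changed with all 12 libraries between the genotypes at 0 h for DUSP1 (-0.41), DUSP4 (-0.59) and DUSP6 (-0.038), for ΔCRE 6 h against 0 h in DUSP4 (0.38), DUSP6 (0.15), DUSP10 (-0.057) and DUSP14 (0.13), and for the change of the difference from 0 to 6 h in DUSP1 (0.52), DUSP4 (0.27), DUSP5 (0.028), DUSP7 (0.42) and DUSP10 (-0.34). Under TPM they changed for WT 6 h against 0 h in DUSP4 (-0.0041) and DUSP7 (-0.021), for ΔCRE 6 h against 0 h in DUSP7 (-0.13) and DUSP16 (-0.035), and at 0 h for DUSP7 (0.0077). Under quantile normalization they changed for DUSP4 at 0 h (-0.019), DUSP7 in ΔCRE 6 h against 0 h (-0.033) and DUSP16 in WT 24 h against 6 h (-0.046). The cause was not tested. Leaving out each library in turn gave values on both sides of 0, none of them called, of -0.075 to 0.11 for DUSP1 (the change of the difference from 6 to 24 h), -0.034 to 0.070 for DUSP4 (ΔCRE against WT at 0 h), -0.012 to 0.049 for DUSP5 (the change of the difference from 6 to 24 h), -0.16 to 0.0040 for DUSP6 (WT 6 h against 0 h), -0.036 to 0.13 for DUSP6 (the change of the difference from 0 to 6 h), -0.010 to 0.018 for DUSP7 (ΔCRE 6 h against 0 h), -0.23 to 0.013 for DUSP10 (the change of the difference from 6 to 24 h), -0.069 to 0.088 for DUSP16 (WT 24 h against 6 h) and -0.0059 to 0.15 for DUSP16 (the change of the difference from 6 to 24 h). ΔCRE 0 h contrasts have no value without ΔCRE 0 h replicate 2.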
